A study of Mus musculus with 12 samples.

Results

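Gonadal white adipose tissue (WAT) taken after an injection of unacylated ghrelin (UAG) was compared with the same tissue taken after saline, on all 4 WAT arrays of a series of 12 arrays that also holds muscle and liver. The members were the arrays whose titles give white adipose with saline (2 arrays, replicates 1 and 2) and white adipose with UAG (2 arrays, replicates 1 and 2). Both groups were female GHSR KO mice (C57bl/6), 12 weeks old, so the animals given saline also lacked the ghrelin receptor, and no wild-type animals are among the 12 arrays. UAG was injected intraperitoneally at 20 nmol/kg and the tissues were removed 6 hours after either injection. The study's methods count mice as the replicates of a group, but the labels do not tie arrays to animals, and the p-values below measure only the spread between these samples.

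Ghrelin is a stomach hormone that must carry an octanoyl group to activate its receptor, the growth hormone secretagogue receptor (GHSR), and UAG is the form without that group. White adipocytes store triglyceride made from fatty acids that they take up or synthesise, release them by lipolysis, and secrete hormones such as leptin and adiponectin. The gonadal depot of the female lies along the uterine horns and ovaries, and besides adipocytes it holds endothelial, mesothelial, immune and progenitor cells. The comparison asks which transcripts differ in this depot after UAG when GHSR is absent.

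The Mouse Genome 430 2.0 array carries 45037 probe sets besides 64 controls, and 25307 had a mean intensity of at least 30 over the WAT arrays. Each gene was represented by its brightest probe set, which left 11991 measured genes. Intensities below 30 were set to 30, and a gene is called higher or lower here when the ratio of the group means after this floor was at least 2 or at most 0.5. By that rule 59 of the 11991 genes were higher on the UAG arrays (0.492%) and 230 were lower (1.92%). These shares are the background for every count of called list members below. On log2 values the median difference over all genes was 0.03, with 6515 genes above 0 and 5475 below it. The groups did not overlap, with both UAG arrays above or below both saline arrays, for 2859 genes in the higher direction (23.8%) and 1699 in the lower direction (14.2%).

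No probe set passed an adjusted p of 0.05 in limma on the 4 arrays (0 of 25307, 0.0%), where the smallest adjusted p was 0.3087 and 1703 probe sets (6.73%) had an unadjusted p under 0.05. When limma took its estimate of spread from all 12 arrays, 11 probe sets passed, 4 of them higher and 7 lower on UAG. With saline replicate 1 or replicate 2 left out, 1649 or 1273 probe sets passed, the spread then resting on the UAG pair alone. The rest of the text therefore gives each array's value beside the means, and "higher" and "lower" describe these 4 arrays. The Ghsr probe set lay between 3.80 and 26.2 before the floor on all 12 arrays of the series, below 30 on each. Whether that probe set lies in the deleted part of the gene is not known here, so it is no check of the genotype.

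The saline arrays differed from each other more than the UAG arrays did. After the floor, 1424 probe sets were 2-fold or more apart between the saline replicates and 167 between the UAG replicates. Pairs of a saline and a UAG array differed in 658 to 1041 probe sets, fewer than the saline pair in every case. Of the 230 genes called lower, 183 were also 2-fold apart between the saline arrays, 72 of them high on replicate 1 and 111 high on replicate 2. Of the 59 called higher, 2 were 2-fold apart between the saline arrays. Counted over probe sets, 112 were higher and 387 lower on UAG, so that 22.4% were higher, and among those whose saline arrays lay within 2-fold of each other 106 were higher and 80 lower (57.0% higher). Without the floor 3497 probe sets passed and 43.8% of them were higher.

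Markers of other cell types moved with this difference between the saline arrays. Brown adipocyte markers, the genes of heat-producing fat, were highest on saline replicate 1 for 12 of 12 measured members, and their summed intensity was 22564 and 3681 on the saline arrays and 4879 and 2762 on the UAG arrays. Ucp1, the mitochondrial uncoupling protein, was at 6772 and 702 on saline replicates 1 and 2 and at 1677 and 503 on UAG replicates 1 and 2. Skeletal muscle markers were also highest on saline replicate 1, for 11 of 11 members, with sums of 4796 and 1050 against 1409 and 1751. Ckm, muscle creatine kinase, was at 613 on that array and between 30 and 40.7 on the other WAT arrays (its probe sets gave -2.07 and -0.10), and the fast myosin gene Myh4 was at 423 there and at the floor on the others.

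Smooth muscle markers followed the other saline array. They were highest on saline replicate 2 for 11 of 12 members, with sums of 9500 and 50217 on the saline arrays and 9953 and 10966 on the UAG arrays. Myh11, the smooth muscle myosin heavy chain, was at 658 and 5590 on the saline arrays and at 515 and 703 on the UAG arrays, and its probe sets gave -1.67 and -0.57. Pgr, the progesterone receptor, one of the uterus and oviduct markers, was at 33.5 and 1069 on saline and at 47.5 and 36.4 on UAG. Among the 11 measured members of that list 9 were highest on saline replicate 2, as were 3 of 4 neutrophil markers, for which the sums were 159 and 741 on saline and 190 and 160 on UAG. The brown adipocyte, skeletal muscle, smooth muscle and uterus lists had 9, 10, 10 and 5 members called lower on UAG, beside 1.92% of all genes. None was called higher, and in each list most members were high on a single saline array. In whole tissue, fewer cells of a type and less RNA per cell cannot be told apart.

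Some defining genes of white adipocytes were bright on every WAT array. Adiponectin (Adipoq) was at 13419 and 12280 on saline and 12761 and 14161 on UAG, and the fatty acid carrier Fabp4 was between 16981 and 17913 on all 4 arrays. The groups overlapped for both genes. Of 9 measured adipocyte markers 1 was called higher, leptin, and none was called lower, with a list median of 0.26. The median was 0.0026 against saline replicate 1 alone and 0.36 against replicate 2 alone. Both UAG arrays lay above both saline arrays for 4 of the 9, beside 23.8% of all genes, and 7 were highest on UAG replicate 2. The list stood lowest on saline replicate 2, with a mean deviation of -0.45 log2 from each member's 4-array mean.

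**Figure D1:**
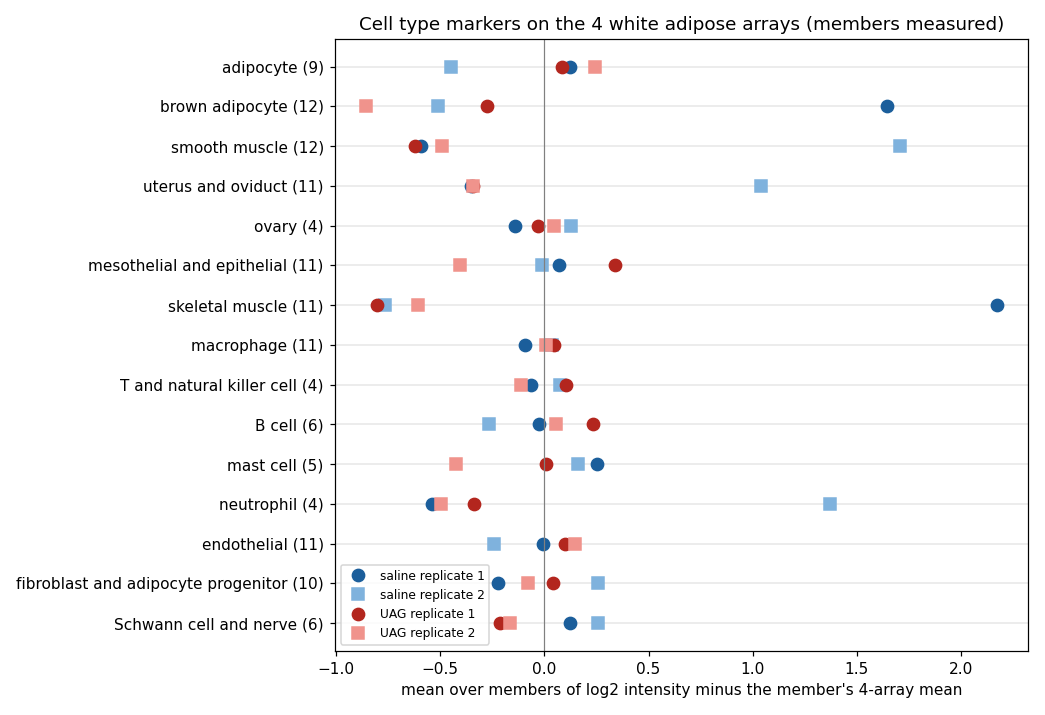
Cell type markers on the WAT arrays. Each point is 1 array and shows the mean over a list's measured members (number in brackets) of the log2 intensity minus that member's mean over the 4 arrays; blue marks saline and red UAG. Saline replicate 1 stands to the right for brown adipocyte and skeletal muscle markers, and saline replicate 2 for smooth muscle, uterus and neutrophil markers.

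The genes with the widest gap between the groups were those for which the nearest saline and UAG arrays lay farthest apart on the log2 scale. The 15 widest gaps in the higher direction ran from 1.07 to 1.55, and for all 15 the saline arrays lay within 2-fold of each other. Sncg, gamma-synuclein, an adipocyte and sensory neuron protein, led them at 1481 and 1158 on saline and 4325 and 4414 on UAG (means 1319 ± 229 and 4369 ± 62.9, SD, n = 2), a ratio of 3.31. Nnat, neuronatin, an imprinted gene expressed in fat and brain, was at 1577 and 1453 on saline and 4969 and 4583 on UAG (1515 ± 87.9 and 4776 ± 272, SD, n = 2). Wfdc21, a secreted whey acidic protein family member, was at 428 and 384 on saline and 1273 and 1224 on UAG. For each of the 3 genes both UAG arrays lay above both saline arrays.

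Mest, an imprinted gene whose level in fat is linked to expansion of fat mass, had the highest ratio of these 15 genes. It was at 165 and 202 on saline and 850 and 571 on UAG, a ratio of 3.88. Pcbd1, a pterin dehydratase and cofactor of HNF1, was at 44.5 and 32.3 on saline and 130 and 125 on UAG. Prelp, a small leucine-rich proteoglycan of the extracellular matrix, was at 1495 and 968 on saline and 4004 and 4116 on UAG, and its probe sets gave log2 differences of 1.15 to 1.75. Fgf13, an intracellular FGF homologous factor, was at 390 and 314 on saline and 1262 and 995 on UAG, and both of its probe sets showed the difference (1.68 and 1.74). None of these genes overlapped between the groups. Mest, Pcbd1, Prelp and Fgf13 were the 4 probe sets that limma called higher when the spread came from 12 arrays, with adjusted p of 0.0342 for Mest and 0.0232 for each of the others, while on the 4 WAT arrays alone their adjusted p ran from 0.377 to 0.422.

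The other genes of this group were dimmer or differed less. Npr3, the clearance receptor that removes natriuretic peptides, was at 1317 and 836 on saline and 3492 and 3046 on UAG, with 1.61 to 1.82 over its 3 probe sets. Prr32, a proline-rich protein gene, was at 118 and 96.1 on saline and 342 and 333 on UAG. Fam107a, an actin-associated stress response gene, was at 95.4 and 90.3 on saline and 257 and 283 on UAG. Folh1, a folate hydrolase, was at the floor on both saline arrays and at 75.2 and 75.6 on UAG, so its ratio of 2.51 is a lower bound. Srpx2, a secreted matrix protein, the GABA transporter gene Slc6a13, the RNA-binding Lsm7 and the sulfated steroid transporter gene Slc10a6 completed the group with ratios of 2.60, 2.93, 2.23 and 2.20. Outside this group, the peptide transporter gene Slc15a2 was at 48.8 and 30 on saline and 91.9 and 306 on UAG, with the UAG arrays more than 2-fold apart and log2 differences of 2.13 and 0.19 for its probe sets.

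In the lower direction, 10 of the 15 genes with the widest gap had at least 1 UAG array at the floor. Tnnt2, cardiac troponin T, had the widest gap, at 180 and 129 on saline and at the floor on both UAG arrays, so that it was at least 5.15-fold lower. Tlcd4, a TLC domain membrane protein gene, was at 115 and 117 on saline and 30 and 32.3 on UAG, and it had the smallest adjusted p with the spread from 12 arrays (0.00536 in limma) against 0.369 on the 4 WAT arrays. Mmrn1, multimerin 1, a platelet and lymphatic endothelial protein, was at 88.4 and 174 on saline and at the floor on both UAG arrays. For these genes the gap to the UAG arrays exceeded the spread of the saline pair.

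Of the genes that stayed above the floor on UAG, Erdr1 was the brightest, at 1822 and 1946 on saline and 670 and 836 on UAG (1884 ± 87.8 and 753 ± 117, SD, n = 2), although its probe sets ranged from -1.33 to -0.68. Tmem267, a transmembrane protein gene, was at 417 and 302 on saline and 109 and 119 on UAG. Mmp9, the gelatinase matrix metalloproteinase 9, was at 264 and 308 on saline and 95.7 and 110 on UAG, a log2 difference of -1.47, while its other probe set gave -0.57 and was not called. Reln, the secreted glycoprotein reelin, was at 111 and 176 on saline and 47.2 and 44.3 on UAG. The saline arrays lay within 2-fold of each other for all 4 genes, and the groups did not overlap.

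The saline arrays were more than 2-fold apart for a pair of the remaining genes. Sprr1a, a cornified envelope protein, was at 627 and 107 on saline and 30 and 31.3 on UAG, so that its mean was at least 12.0-fold lower on UAG, a bound that rested largely on saline replicate 1. Wfdc2, an epithelial protease inhibitor, was likewise at 202 and 67.4 on saline and at the floor on UAG. The synaptic genes Nrxn3 and Rims1, the chloride channel regulator Clca3a1, the flippase subunit Tmem30b, the melanosome transport gene Mreg and the ubiquitin ligase Rnf128 lay between 69.3 and 110 on saline and between 30 and 39.9 on UAG, and for each of them the saline arrays lay closer to each other than to the nearer UAG array.

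**Figure D2:**
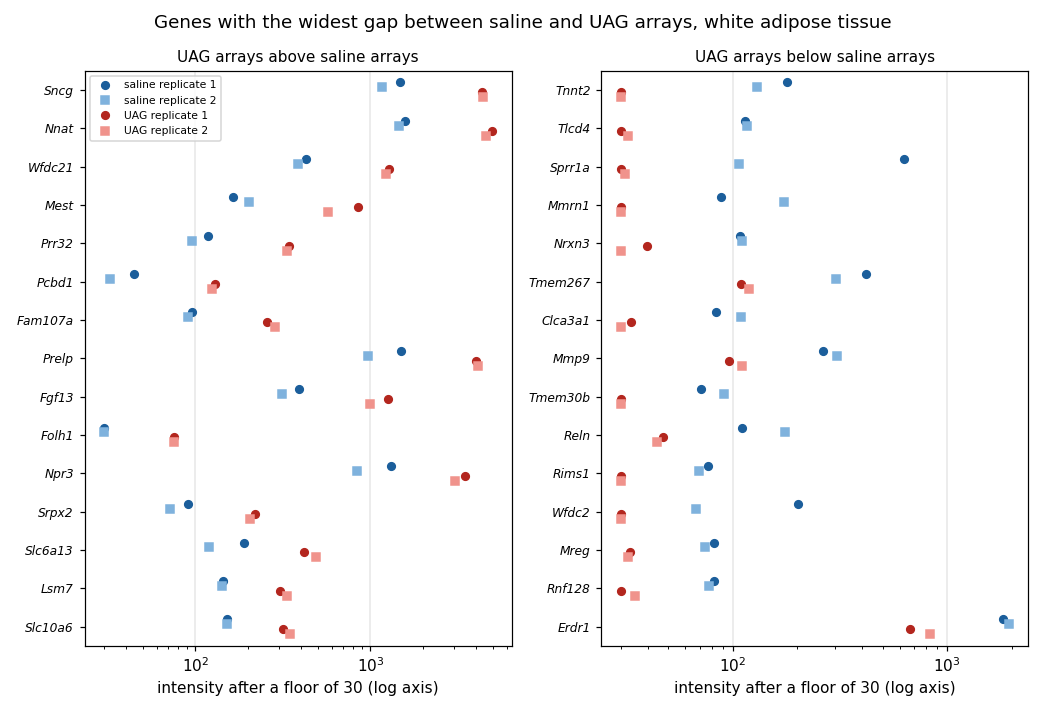
The 15 genes with the widest gap in each direction on the WAT arrays. Each point is the intensity of the gene's brightest probe set on 1 array, after a floor of 30, on a log axis. The UAG arrays lie to the right of the saline arrays in the left panel and to the left in the right panel, where many UAG points sit at the floor.

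Genes known to vary with the expansion of fat mass formed the list with the highest median difference. Of 9 measured members 6 were called higher, beside 0.492% of all genes, and none lower, beside 1.92%. The list median was 1.68 against 0.03 over all genes, and it was 1.31 against saline replicate 1 alone and 1.83 against replicate 2 alone. Besides Mest, Sncg, Fgf13 and Npr3, the members called higher were leptin and Sfrp5. Leptin (Lep), the adipocyte hormone that reports fat stores, was at 1495 and 392 on saline and 2762 and 3283 on UAG (943 ± 780 and 3022 ± 369, SD, n = 2). Sfrp5, a secreted Wnt inhibitor, was at 106 and 69.1 on saline and 381 and 202 on UAG. The UAG arrays lay above both saline arrays for Lep and Sfrp5, but the saline arrays were more than 2-fold apart for Lep. Trp53inp2, Cav1 and Naalad2 had differences of 0.72, 0.21 and -0.04. Several of these genes had been named from the same arrays by the study or by earlier results, so the count is no independent evidence of a direction.

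Among 14 adipokines, Lep and Sfrp5 were called higher and Lcn2, lipocalin 2, was called lower. Lcn2 was at 58.4 and 115 on saline and at the floor on both UAG arrays, so it was at least 2.89-fold lower. Rarres2, the chemerin precursor, was at 1189 and 1349 on saline and 2293 and 1777 on UAG. The chemerin receptors Cmklr1 and Gpr1 also had both UAG arrays above both saline arrays, Cmklr1 at 561 and 553 against 925 and 907 and Gpr1 at 63.0 and 55.9 against 107 and 107. Resistin (Retn) was between 9885 and 11166 on all arrays, with the groups overlapping.

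The enzymes that make fatty acids from citrate were lower on UAG in the means, and saline replicate 1 was the array that stood apart. Of 18 measured members 6 were called lower, beside 1.92% of all genes, and none higher. The list median was -0.73, and 16 of 18 were highest on saline replicate 1. Against saline replicate 1 alone the median was -1.24, and against replicate 2 alone it was -0.16. Both UAG arrays lay below both saline arrays for 9 of 18 members, beside 14.2% of all genes.

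Elovl6, which lengthens palmitate, was at 6899 and 1634 on saline and 1038 and 1039 on UAG, and its 3 probe sets gave -1.69 to -0.49. Elovl3, another elongase, was at 1125 and 240 on saline and 189 and 99.8 on UAG. Me1, malic enzyme, a source of NADPH, was at 12549 and 5677 on saline and 3706 and 4723 on UAG. In all 3 genes the groups did not overlap, but the UAG arrays were nearer to saline replicate 2 than the saline arrays were to each other.

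For the other members called lower the groups overlapped at the brightest probe set. ATP citrate lyase (Acly) was at 11005 and 4414 on saline and 2778 and 4461 on UAG. Another of its probe sets was at 6676 and 2688 on saline and 1851 and 2395 on UAG, where the groups did not overlap. Acetyl-CoA synthetase 2 (Acss2) was at 5770 and 1627 on saline and 1367 and 1733 on UAG. Scd2, a stearoyl-CoA desaturase, was at 5297 and 1945 on saline and 1322 and 2068 on UAG. At the brightest probe set of each gene UAG replicate 2 lay just above saline replicate 2.

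Members with closer saline arrays differed less than 2-fold. Elovl5, an elongase of polyunsaturated fatty acids, was at 3217 and 2754 on saline and 1618 and 1896 on UAG, and both of its probe sets gave -0.76. Fads2, the delta-6 desaturase, was at 194 and 200 on saline and 117 and 135 on UAG. The limma p for Elovl5 and Fads2 was 0.00482 and 0.00989 before adjustment and 0.582 and 0.626 after it. Acetyl-CoA carboxylase 1 (Acaca), the committed step, was at 6402 and 3240 on saline and 2512 and 2706 on UAG, and its other probe set gave -2.15. Fatty acid synthase (Fasn) was at 13535 and 10676 on saline and 9541 and 9608 on UAG. Scd1, the main desaturase of fat, was at 13477 and 12847 on saline and 12418 and 14496 on UAG, with the groups overlapping, and its other probe set gave -0.49.

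The regulators of the pathway did not separate the groups. Srebf1, the sterol regulatory element-binding factor of lipogenesis, was at 4907 and 1783 on saline and 1936 and 2491 on UAG. Mlxipl, the carbohydrate response factor, was at 1597 and 548 on saline and 675 and 733 on UAG. Both were high on saline replicate 1, the array that also carried the brown adipocyte markers, and the part of those cells in the lipogenic values was not tested.

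Cholesterol synthesis genes shared that array pattern. Of 20 measured members 3 were called lower, beside 1.92% of all genes, and none higher. Of the 20, 19 were highest on saline replicate 1. The list median of -0.26 became -1.08 against replicate 1 alone and 0.09 against replicate 2 alone. Squalene epoxidase (Sqle) was at 400 and 122 on saline and 83.5 and 99.8 on UAG. Lanosterol demethylase (Cyp51) was at 539 and 302 on saline and 163 and 257 on UAG. Farnesyl diphosphate synthase (Fdps) was at 1048 and 322 on saline and 286 and 383 on UAG. The groups did not overlap for Sqle and Cyp51 and overlapped for Fdps. Hmgcs1, HMG-CoA synthase, was at 2017 and 1838 on saline and 1841 and 1404 on UAG, the saline arrays being close to each other here. Srebf2, which drives the pathway, was at 122 and 165 on saline and 169 and 139 on UAG, where the groups overlapped. Its other probe set was at 112 and 112 on saline and 71.5 and 89.7 on UAG, so that the groups did not overlap there and the log2 difference was -0.48 instead of 0.12.

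Sterol genes are known for promoters with a sterol regulatory element and CCAAT boxes, and the promoters of Hmgcs1 and Cyp51 are shown to give this context for members with and without a difference. Both sequences are from RefSeq (GRCm38.p6), 300 bases each, from 250 bases before the transcript start to 50 after it. Hmgcs1 lies at chr13:119690101-119690400 on the + strand, and the capitals mark the sterol element core. Cyp51 lies at chr5:4104648-4104947 on the - strand, and the capitals mark a CCAAT box.
Hmgcs1: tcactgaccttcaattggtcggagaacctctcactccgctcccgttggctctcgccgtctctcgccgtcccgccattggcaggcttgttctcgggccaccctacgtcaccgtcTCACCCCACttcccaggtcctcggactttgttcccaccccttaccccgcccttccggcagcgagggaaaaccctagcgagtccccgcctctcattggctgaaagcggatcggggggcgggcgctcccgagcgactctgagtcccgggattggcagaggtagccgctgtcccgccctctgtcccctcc
Cyp51: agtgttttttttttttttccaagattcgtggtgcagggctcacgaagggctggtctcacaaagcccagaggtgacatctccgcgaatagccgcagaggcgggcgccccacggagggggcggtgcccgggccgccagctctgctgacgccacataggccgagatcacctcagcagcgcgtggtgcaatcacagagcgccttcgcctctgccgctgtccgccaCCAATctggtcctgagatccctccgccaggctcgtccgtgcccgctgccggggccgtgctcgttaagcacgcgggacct
The core TCACCCCAC was searched on both strands and occurred in 1 of 19 promoters of 16 genes of the cholesterol list, that of Hmgcs1, in 0 of 17 promoters of the fatty acid synthesis list and in 0.551% of all 32851 promoters. CCAAT, on both strands, occurred in 16 of the 19 cholesterol promoters (84.2%), in 11 of the 17 fatty acid synthesis promoters (64.7%) and in 37.4% of all promoters. A match is a description of the letters only.

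**Figure D3:**
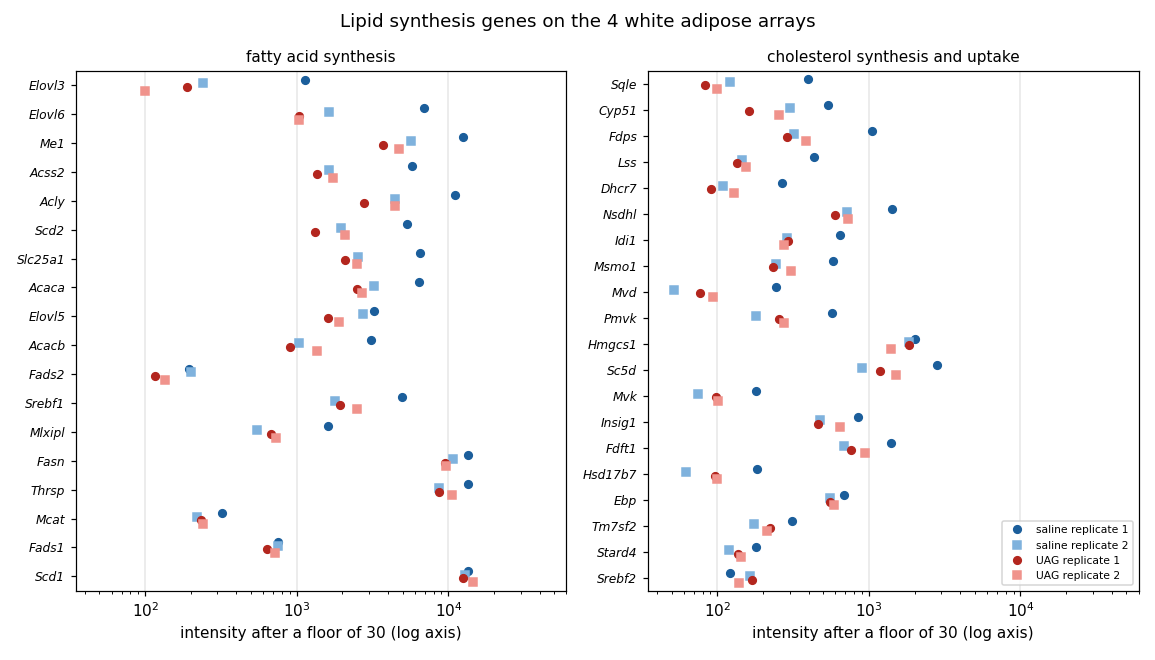
Fatty acid synthesis (left) and cholesterol synthesis and uptake genes (right) on the WAT arrays. Each point is the intensity on 1 array after a floor of 30, on a log axis, with genes ordered by their UAG minus saline difference. Saline replicate 1 (dark blue circles) is the highest array for 16 of 18 and 19 of 20 genes, and saline replicate 2 lies among the UAG arrays for many of them.

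The steps after fatty acid synthesis did not show this direction. Of 20 measured genes of triglyceride synthesis and the lipid droplet none was called in either direction, and the median was 0.07. Plin4, a lipid droplet coat protein, was at 5409 and 6219 on saline and 8685 and 8509 on UAG. The phosphatidate phosphatase Lpin1 was at 3302 and 2094 on saline and 3489 and 3627 on UAG, and Cidec, which fuses droplets, was at 8281 and 7868 on saline and 9454 and 10322 on UAG. Those 3 genes had both UAG arrays above both saline arrays, while Agpat2 (10302 and 4614 on saline, 4137 and 5038 on UAG) and Plin2 (5860 and 2542 on saline, 2672 and 2469 on UAG) were high on saline replicate 1.

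Lipolysis and fatty acid uptake genes had both UAG arrays above both saline arrays for 8 of 16 measured members, beside 23.8% of all genes, and their median was 0.23. G0s2, which restrains adipose triglyceride lipase, was at 2217 and 1431 on saline and 2833 and 3196 on UAG. Monoglyceride lipase (Mgll) was at 5447 and 4266 on saline and 6828 and 6533 on UAG. The glycerol channel Aqp7 was at 377 and 415 on saline and 542 and 610 on UAG. The lipases Pnpla2 and Lipe had smaller differences of 0.26 and 0.32 with the groups apart, and no member was called higher. Lipg, endothelial lipase, was the member called lower, at 57.4 and 115 on saline and 33.3 and 52.1 on UAG.

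Fatty acid oxidation and the citric acid cycle were again ordered by saline replicate 1. Of 17 oxidation genes none was called, 14 were highest on that array, and the median was -0.54 against it and 0.12 against saline replicate 2. Of 24 genes of the citric acid cycle and pyruvate dehydrogenase none was called, 23 were highest on that array, and the medians were -0.68 and 0.09. Pdk1, a kinase that inhibits pyruvate dehydrogenase, had close saline arrays, at 920 and 695 against 428 and 488 on UAG, but its 4 probe sets ran from -0.81 to 0.13. Ehhadh, a peroxisomal oxidation enzyme, was at 598 and 496 on saline and 360 and 419 on UAG. For Pdk1 and Ehhadh the groups did not overlap.

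In glucose handling the transporters pointed in different directions. Of 17 measured genes of glucose uptake and glycolysis 1 was called higher and 2 lower. Slc2a3, a high-affinity glucose transporter, was at 137 and 204 on saline and 280 and 469 on UAG. Slc2a5, a fructose transporter, was at 419 and 43.6 on saline and 38.9 and 55.0 on UAG, and the insulin-sensitive transporter Slc2a4 was at 2705 and 878 on saline and 1069 and 1382 on UAG. Gpd2, the mitochondrial glycerol phosphate dehydrogenase and the other gene called lower, was at 3111 and 911 on saline and 925 and 986 on UAG. The lower calls of Slc2a5 and Gpd2 thus rested on the high value of saline replicate 1, and the groups overlapped for both and for Slc2a4. Another probe set of Gpd2 was at 501 and 142 on saline and 102 and 129 on UAG, where the groups did not overlap. Among glycolytic enzymes Pkm, pyruvate kinase, was at 2992 and 1306 on saline and 1252 and 1105 on UAG.

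Of 16 glycogen genes 3 were called lower. Pygm, the muscle glycogen phosphorylase, was at 142 and 79.2 on saline and 49.2 and 39.8 on UAG, with the groups apart. Ppp1r3b, a glycogen-targeting phosphatase subunit, was at 2087 and 137 on saline and 280 and 271 on UAG. Gys2, liver-type glycogen synthase, was at 365 and 101 on saline and 119 and 104 on UAG. In Ppp1r3b and Gys2 the UAG arrays lay between the saline arrays.

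**Figure D4:**
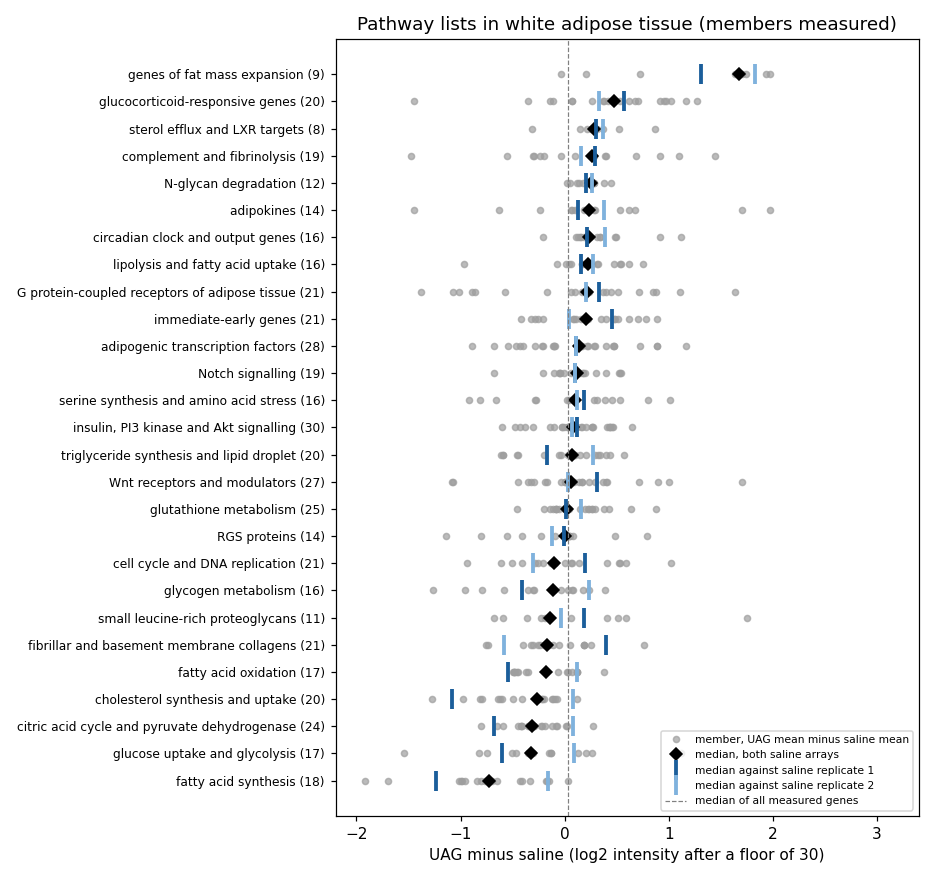
Pathway lists in WAT. Grey points are measured members (number in brackets), placed by the mean log2 intensity on UAG minus saline after a floor of 30; diamonds are list medians over both saline arrays, and bars are the medians against saline replicate 1 (dark) and replicate 2 (light). The dark and light bars lie more than 1 log2 unit apart for fatty acid and cholesterol synthesis, and both lie above 1 for the genes of fat mass expansion.

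Components of insulin signalling differed by less than 2-fold. None of 30 measured members was called and the median was 0.08. Both UAG arrays lay above both saline arrays for 10 members, beside 23.8% of all genes, and below them for 4, beside 14.2%. Irs2, an insulin receptor substrate, was at 62.7 and 89.7 on saline and 119 and 117 on UAG. Foxo1, a transcription factor that insulin restrains, was at 555 and 681 on saline and 802 and 898 on UAG. Grb14, an inhibitor of the insulin receptor, was at 129 and 74.4 on saline and 68.9 and 60.8 on UAG. The insulin receptor itself (Insr) was at 361 and 422 on saline and 442 and 434 on UAG.

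Of 28 adipogenic transcription factors 1 was called higher and 1 lower. Cebpd, an early adipogenic factor, was at 154 and 347 on saline and 448 and 603 on UAG. Ppargc1a, the coactivator of brown fat and mitochondrial genes, was at 120 and 46.7 on saline and 32.8 and 50.2 on UAG. At this probe set it was high on the array with the brown adipocyte markers, and the groups overlapped. At its other measured probe sets both UAG arrays lay below both saline arrays, with log2 differences of -1.08 to -0.61. The largest of these was at 83.9 and 48.3 on saline and at the floor on both UAG arrays. Zfp423, a preadipocyte determination factor, was at 141 and 106 on saline and 209 and 245 on UAG, and Klf15 was at 574 and 417 on saline and 715 and 911 on UAG. Pparg, the central adipogenic receptor, was at 2074 and 1244 on saline and 1940 and 2001 on UAG, where the groups overlapped, and Cebpa, its partner, was at 4241 and 3901 on saline and 4690 and 4837 on UAG.

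Genes that respond to glucocorticoids had a median of 0.48 beside 0.03 over all genes, and 0.57 and 0.33 against saline replicates 1 and 2 alone. Of 20 measured members 2 were called higher, Tsc22d3 and Cebpd, and 1 lower, while Fkbp5 and Zbtb16 stayed short of the threshold. Both UAG arrays lay above both saline arrays for 10 members, beside 23.8% of all genes, and below them for 3, beside 14.2%. Tsc22d3, the glucocorticoid-induced leucine zipper, was at 865 and 705 on saline and 1521 and 2353 on UAG (785 ± 113 and 1937 ± 588, SD, n = 2), although its measured probe sets ranged from -0.03 to 1.41. Fkbp5, a chaperone of the glucocorticoid receptor, was at 598 and 323 on saline and 734 and 1088 on UAG. Its other measured probe set was at 376 and 218 on saline and 336 and 636 on UAG, where the groups overlapped. Zbtb16, another receptor target, was at 712 and 412 on saline and 1162 and 944 on UAG, with 0.15 to 0.95 over its 3 probe sets. At the brightest probe set the UAG arrays were above the saline arrays in all 3 genes, and 11 of the 20 members were highest on UAG replicate 2. Lcn2, given above, was the member called lower, and the receptor gene Nr3c1 differed by -0.11.

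Clock genes lay mostly above 0. Of 16 measured members 1 was called higher, none lower, and 6 had both UAG arrays above both saline arrays, beside 23.8% of all genes. Ciart, a repressor of the CLOCK complex, was at 92.1 and 101 on saline and 189 and 231 on UAG. Per1, a core clock gene that glucocorticoids also induce, was at 190 and 235 on saline and 422 and 375 on UAG. Dbp and Nr1d1, strongly rhythmic outputs, differed by 0.19 and 0.15.

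Of 21 immediate-early genes none was called. Both UAG arrays lay above both saline arrays for 8 of them, beside 23.8% of all genes, and below them for 1, beside 14.2%. Klf6 was at 326 and 400 on saline and 694 and 648 on UAG, with 0.23 to 0.89 over its 5 probe sets, and Ier3 was at 228 and 267 on saline and 353 and 507 on UAG. Fos, Jun and Egr1 had overlapping groups, with differences of 0.48, -0.32 and 0.21.

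In serine synthesis and amino acid stress 1 of 16 genes, Phgdh, was called higher and 2, Aldh18a1 and Slc7a5, were called lower. Phgdh, the first enzyme of serine synthesis, was at 1387 and 1034 on saline and 2398 and 2447 on UAG, with 0.82 to 1.30 over its 4 probe sets. Psat1, the next enzyme, was at 827 and 1027 on saline and 1234 and 1439 on UAG, while Psph, the last, was at 580 and 297 on saline and 255 and 272 on UAG. The alanine aminotransferase Gpt2 was at 1194 and 1361 on saline and 2104 and 2342 on UAG. The groups did not overlap for any of these 4 genes, and Atf4, the factor that governs amino acid stress, differed by 0.02. Aldh18a1, an enzyme of proline synthesis, was at 103 and 438 on saline and 129 and 113 on UAG, where the groups overlapped. Slc7a5, a transporter of large neutral amino acids, was at 40.3 and 82.7 on saline and 30 and 31.1 on UAG. Both were high on saline replicate 2.

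Complement and fibrinolysis genes included members in both directions, 2 called higher and 1 lower of 19. Cfb, complement factor B of the alternative pathway, was at 434 and 265 on saline and 790 and 669 on UAG. Timp4, a metalloproteinase inhibitor abundant in fat, was at 773 and 444 on saline and 1465 and 1741 on UAG, and Mmp9 was the member called lower. C6 and C2 were at 187 and 211 and at 729 and 803 on saline, against 396 and 352 and 1374 and 1098 on UAG. The groups did not overlap for these genes, and C1qa, C1qb and C1qc, which macrophages make, differed by 0.10 to 0.28.

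Receptors and their regulators showed single members that stood out. Of 21 receptor genes of adipose tissue, most of them G protein-coupled, 2 were called higher and 5 lower, and each of those 5 was highest on saline replicate 2, as the smooth muscle and uterus markers were. The members called higher were Npr3, given above, and Ffar2. Ffar2, a short-chain fatty acid receptor, was at 171 and 254 on saline and 508 and 397 on UAG. Sucnr1, the succinate receptor, was short of the threshold, at 604 and 668 on saline and 1212 and 1126 on UAG. Oxtr, the oxytocin receptor, was at 441 and 1027 on saline and 292 and 228 on UAG. Of the other receptors called lower, the relaxin receptor gene Rxfp1 and the angiotensin receptor gene Agtr2 were at 122 and 102 on saline replicate 2 and at the floor on the other WAT arrays, and Adgra2, an adhesion receptor, was at 124 and 307 on saline and 113 and 102 on UAG. The groups did not overlap for Ffar2, Sucnr1 and Oxtr.

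Of 14 RGS genes, which shut off G protein signals, 1 was called lower. Rgs7 was at 296 and 258 on saline and 92.2 and 172 on UAG, whereas Rgs3 was at 402 and 478 on saline and 761 and 758 on UAG, with 0.18 to 1.01 over its 3 probe sets. Among 27 Wnt genes, Sfrp5 and Fzd4 were called higher and Dkk2 and Lgr6 lower. Fzd4, a Frizzled receptor, was at 926 and 788 on saline and 1727 and 1704 on UAG, and Lgr4, an R-spondin receptor, was at 414 and 414 on saline and 662 and 894 on UAG. Dkk2, a Wnt inhibitor, was at 39.4 and 341 on saline and 55.3 and 54.2 on UAG. The lower call of Dkk2 rested on the high value of saline replicate 2, and the groups overlapped. None of 19 Notch genes was called. Notch1 was at 295 and 245 on saline and 426 and 352 on UAG, and the Notch target Hes1 was at 136 and 126 on saline and 94.8 and 70.9 on UAG.

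In several further groups no gene was called. All 12 measured genes of N-glycan degradation had a difference above 0, from 0.02 for Aga to 0.45 for Engase, and 9 of 12 had both UAG arrays above both saline arrays, beside 23.8% of all genes. Of 8 sterol efflux genes regulated by the liver X receptor 6 did so, with Abcg1, a cholesterol exporter, at 179 and 182 on saline and 365 and 298 on UAG. Of 11 endothelial markers 6 did so, and 4 of 5 mast cell markers had both UAG arrays below both saline arrays, beside 14.2% of all genes, with Kit at 187 and 189 on saline and 149 and 87.5 on UAG. Of 11 macrophage markers none was called, and 4 lay above and 4 below both saline arrays, with Cd163, a scavenger receptor, at 674 and 636 on saline and 1138 and 1228 on UAG. Of the ghrelin system Cd36, a fatty acid transporter that also binds growth hormone secretagogues, was at 10646 and 10134 on saline and 11696 and 12139 on UAG. The glutathione list had a median of 0.03, and its member Gsta3, a glutathione transferase, was at 1343 and 841 on saline and 1841 and 2072 on UAG.

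Collagen genes were mostly high on saline replicate 2. Of 21 collagen genes 16 were highest on that array, 1 was called lower and none higher, and the median was -0.17. The gene called lower, Col6a3, was at 1035 and 5394 on saline and 1487 and 1350 on UAG. Small leucine-rich proteoglycans did not share that pattern, with 4 of 11 highest on saline replicate 2. Of the 11, Prelp was called higher, 4 had both UAG arrays above both saline arrays (23.8% of all genes) and 2 had both below (14.2%). Biglycan (Bgn) was at 1119 and 1974 on saline and 2266 and 2223 on UAG, lumican (Lum) at 2184 and 5776 on saline and 2765 and 3333 on UAG, and decorin (Dcn) between 9736 and 10978 on all arrays. Of 21 cell cycle genes 14 were highest on saline replicate 2 and 1 was called higher, E2f1, at 44.3 and 43.1 on saline and 113 and 69.5 on UAG.

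Mesothelial and epithelial markers differed between the UAG arrays and among themselves. Of 11 measured members 1 was called higher and 1 lower, 5 had a difference above 0 and 6 below it, and the median was -0.25. Msln, mesothelin, was at 115 and 158 on saline and 412 and 219 on UAG, and Upk3b was at 1140 and 1237 on saline and 2615 and 1427 on UAG. The keratin genes Krt18 and Krt8 went the other way, Krt18, the member called lower, at 276 and 118 on saline and 111 and 56.8 on UAG and Krt8 at 202 and 204 on saline and 173 and 92.9 on UAG. The list sums were 3310 and 3361 on saline and 5437 and 3025 on UAG, so that UAG replicate 1 stood above the other arrays. None of 4 T and natural killer cell, 6 B cell, 4 ovary and 10 fibroblast and progenitor markers was called. Of 6 Schwann cell and nerve markers 1 was called lower, Ngfr, at 39.9 and 342 on saline and 32.1 and 34.9 on UAG, another gene high on saline replicate 2.

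**Figure D5:**
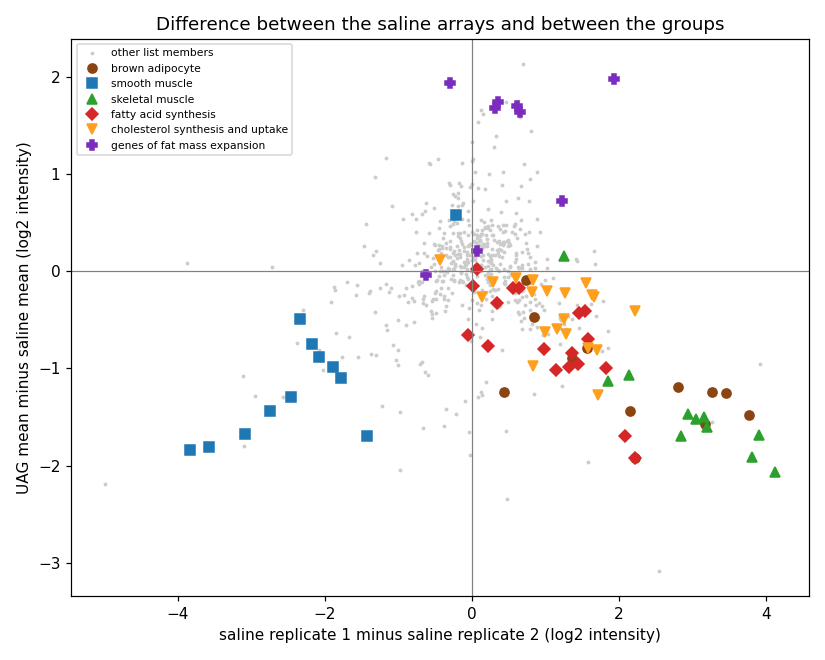
Difference between the saline arrays against the difference between the groups. Each point is a measured list member, with saline replicate 1 minus replicate 2 on the x axis and UAG minus saline means on the y axis, both log2 intensity after a floor of 30. Brown adipocyte, skeletal muscle, fatty acid and cholesterol synthesis genes lie to the lower right and smooth muscle genes to the lower left, while 6 genes of fat mass expansion lie above 1 on the y axis.

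The WAT genes with the widest gaps were compared with the other tissues of the series, in which the labels do not tie tissues to mice, so that arrays of different tissues may come from the same animals. In muscle all 15 genes that were higher in WAT also had a difference above 0, with a median of 0.82 and a range of 0.18 to 1.58, and 5 of them reached 1. In liver 7 of 14 had a difference above 0, with a median of 0.04. Of the 15 genes lower in WAT, 6 of 14 measured in muscle and 8 of 15 in liver had a difference below 0. The shares of all genes above and below 0 in muscle and in liver are not given here. These counts therefore lack a background, and a general shift within either tissue was not tested. The WAT difference itself did not pass a test against either tissue, with 0 probe sets at an adjusted p of 0.05 in limma against liver (1333 at an unadjusted p under 0.05) and 0 against muscle (788), where the smallest adjusted p was 0.2259 and 0.06426. With the spread from all 12 arrays, 4 probe sets passed against liver and 0 against muscle.

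Some genes differed alike in several tissues and others did not, on log2 values before the floor. Nnat differed by 1.74 in liver and 1.58 in muscle, and Cebpd by 1.31 and 1.28, near their WAT values of 1.66 and 1.17. Erdr1 and Tmem267 were below 0 in every tissue, with differences of -1.36 and -1.52 in liver and -1.23 and -1.24 in muscle. The differences of Sncg and Fgf13 were -1.38 and -1.22 in liver. WAT and liver stood apart by 3.12 ± 0.33 and 2.90 ± 0.43 (SE), with limma adjusted p of 0.226 and 0.255. Both genes were picked for their WAT gap and could pass the intensity filter on the WAT arrays alone. Their liver intensities are not given here, so the liver differences may lie among values that carry no order. Lep differed by 1.46 in muscle. The adipocyte genes Adipoq and Fabp4 differed there by 0.02 and -0.03, and the cause of these differences was not tested.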

How the data were processed

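Total RNA of gonadal white adipose tissue, muscle and liver was hybridised to Affymetrix Mouse Genome 430 2.0 arrays. The deposited table holds log2 values for 12 arrays, which the authors made from probe intensities (MAS5 in the submitters' processing notes, with quantile normalization in the methods). That the base is 2 was settled from the values, since base e would give intensities up to 1432760 on the WAT arrays. Here 2 to the power of each value was taken as the intensity, values under 30 were set to 30, and the groups were compared by the ratio of arithmetic means with a threshold of 2, as in the study's methods. Log2 differences in the text are differences of mean log2 intensity after the floor, except those of limma, which used the deposited log2 values of probe sets averaging 30 or more in intensity and Benjamini-Hochberg adjustment. limma 3.58.1 in R 4.3.3 was tested on simulated data, and tables were made with Python 3.11.15, pandas 2.3.3 and numpy 2.4.6.

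Probe sets were named from the platform annotation. Of 45037 probe sets, 34945 name 1 gene, 932 several and 9160 none, and genes were named only from the first kind, 18193 in all. A gene's brightest probe set over the 12 arrays represents it. The 28 pathway lists and 18 cell type lists hold members chosen with earlier results of these data known. Of 741 genes written in all lists, 687 were matched and 54 were not analysed here. Genes were named by rule. From the genes past the 2-fold threshold whose groups did not overlap, the 15 with the widest gap in each direction were taken. From each list, the members past the threshold or those with the largest differences were taken, with the genes the study names for white fat, the markers behind an array pattern, and Ghsr. Further list members given for their role or as examples of genes that did not differ were chosen after their values were seen. With 2 arrays per group, the number of arrays limits the precision. The floor understates changes of dim genes. The 3'/5' ratios on the WAT arrays were 1.70 to 1.96 for Actb and 0.70 to 0.74 for Gapdh.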

Additional observations from a re-analysis of the deposited data

How the results depend on the processing

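The number of 2-fold probe sets was 499 (348 genes). It became 236 (180) with a floor of 100, 3497 (2264) without a floor, 313 (229) for arrays that did not overlap and 186 (136) where the saline arrays lay within 2-fold of each other. Counted against each saline array, an alternative chosen after seeing the data, it was 110 (79). The share of probe sets higher on UAG, 22.4%, became 43.8%, 35.1%, 57.0% and 61.8% without a floor, without overlap, with the saline arrays within 2-fold and against each saline array. Leaving out 1 array gave 566 to 842 probe sets and 402 to 564 genes, the highest without saline replicate 1, when 341 of the 499 probe sets were shared.

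The count of limma calls was 0 and became 11 with all 12 arrays and 0 to 1649 with 1 array left out, 1649 without saline replicate 1 and 1273 without saline replicate 2. The labels do not say whether the replicate numbers pair the samples. Deviations of same-numbered arrays had r = -0.172 over 25307 probe sets, and 1 correlation cannot settle it. With the replicate number as a replicate block 23 probe sets passed, and with the crossed replicate block, chosen after seeing the data, 1 passed. For the difference from liver the count of 0 became 4 with all 12 arrays, and leaving out 1 array gave 0 to 43 (33 without saline replicate 1, 43 without saline replicate 2). For the difference from muscle it gave 0 to 28 (23 and 28). Neither of these counts moved under a replicate block within each tissue.

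Among 123 named genes, a change of sign was counted only for those past the 2-fold threshold. Of these, 20 changed sign when 1 array was left out. Without saline replicate 2 the log2 difference was 0.080 for Actg2, 0.23 for Aldh18a1, 0.45 for Col6a3, 0.48 for Dkk2, 0.16 for Mylk, 0.31 for Pgr, 0.20 for S100a9 and 0.34 for Smtn, and their lowest values were -3.75, -1.86, -1.93, -2.64, -1.92, -4.68, -2.76 and -1.84. Without saline replicate 1 it was 0.27 for Atp2a1, 0.013 for Cidea, 0.48 for Cox7a1, 0.042 for Fdps, 0.068 for Gpd2, 0.14 for Gys2, 0.076 for Mylpf, 0.41 for Otop1, 1.00 for Ppp1r3b, 0.21 for Slc27a2, 0.086 for Slc2a5 and 0.39 for Ucp1, and their lowest values were -3.64, -3.17, -2.98, -1.66, -1.70, -1.72, -3.08, -3.37, -2.92, -2.59, -3.18 and -2.88. None of the genes past the threshold changed sign without the floor or under another normalization, mean or choice of probe set. Named genes short of the threshold were not checked for sign. The cause was not tested. Values near 30 carry no order, and with 2 arrays a group cell composition, sampling and treatment cannot be told apart.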
